A study of Mus musculus with 34 samples.

Results

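The chromatin around Etv2 was described over the 11 accessible positions found inside the gene or within 50 kb of it, of 156849 positions in the whole series. Etv2 occupies chr7:30633616-30636509 of the mm10 mouse genome, 2894 bp on the minus strand, and the window examined ran from base 30583616 to base 30686509. An accessible position is a set of ATAC-seq peak summits, from any of 19 summit lists, that lie within 250 bp of one another. ATAC-seq cuts open chromatin with the Tn5 transposase, and a summit is the base of a peak where the cut density was highest. The members were chosen by place alone, so their presence in each list was not fixed by the choice. The cells carry an induced copy of Etv2, and a summit inside the gene cannot be assigned to that copy or to the endogenous gene.

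Etv2 encodes an ETS-family transcription factor that acts for a short time in the embryo, where mesodermal progenitors become endothelial and blood cells. ETS proteins bind DNA at sites with a GGAA core. Flk1, encoded by Kdr, is the VEGF receptor that marks these progenitors. Brg1, encoded by Smarca4, is an ATPase of the SWI/SNF complexes that move nucleosomes. In the mouse, Etv2 is silent in fibroblasts and is switched on in embryoid bodies, aggregates of differentiating embryonic stem cells, as mesoderm forms.

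The series held 34 samples in 17 groups of 2. The groups of embryoid bodies (EB) labelled EB_Dox_D25_Flk1pos, EB_Dox_D25 and EB_NoDox_D25 carry a time of 12 h, and the labels do not explain the tag D25. One was given doxycycline (Dox), which induces the transgene, and was sorted for Flk1, the second was given Dox and not sorted, and the third was left without Dox. Brg1-floxed EB of day 4 were labelled as given Dox and came with and without 4OHT (4-hydroxytamoxifen, which activates Cre recombinases fused to an oestrogen receptor domain); the Cre line is not named. Mouse embryonic fibroblasts (MEF), called iHA-Etv2 MEFs in the protocol, came without Dox at day 0, with Dox at days 1, 2 and 7, and with Dox at day 7 after sorting for Flk1. A second MEF set carried a Brg1 knockdown (KD), also in its uninduced samples, and came at day 0 and, with and without Dox, at days 1, 2 and 7. How the knockdown was made and how many clones or embryos the cells came from are not stated in the labels. The 15 groups other than the floxed EB each had 1 summit list for both replicates, so they carry no replicate error, and the 4 floxed EB samples had a list each. The lists held 11188 to 85498 summits with no read counts, so the depth behind a summit is unknown.

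Gene-end summits of marker genes followed the labelled sources in part. At least 1 summit lay within 1 kb of a gene end for 7 of 8 pluripotency markers in each EB list of 12 h, for 4 to 5 of 8 in the floxed EB, and for 0 of 8 in each of the 12 MEF lists. Of 10 fibroblast markers, 7 had one in uninduced MEF, where Prrx1, Thy1 and Lum had none, but 5 to 6 had one in the EB lists of 12 h as well. In MEF of day 7 the count was 6 in the Flk1-positive list and 3 in the unsorted list. The induced and uninduced KD lists of day 7 had 1 and 2. Of 8 markers of Flk1-positive progenitors, 6 to 7 had one in the EB lists of 12 h, 3 to 4 in the floxed EB, 3 in the Flk1-positive MEF and 0 in the unsorted MEF of day 7. Uninduced MEF and MEF of Dox day 1 also had one for 3 of the 8, Kdr, Tek and Cd34 without Dox and Kdr, Cdh5 and Cd34 at day 1. In the Flk1-positive MEF the 3 were Kdr, Cdh5 and Cd34, while Tal1, Lmo2, Tek, Pecam1 and Sox7 had no summit at their ends.

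The promoter of Etv2 and those of its flanking genes Cox6b1 and Rbm42 are shown because summits lay in the flanking promoters and in none of the 19 lists in that of Etv2. The windows run from 250 bases before to 50 bases after the RefSeq start site, read 5′ to 3′ on the minus strand of GRCm38.p6, the assembly that mm10 names, at chr7:30635803-30636102 for Etv2, chr7:30626065-30626364 for Cox6b1 and chr7:30650179-30650478 for Rbm42. The Etv2 interval extends upstream of this start site. Capitals mark the ETS core GGAA, searched on both strands, so that a match to the other strand reads TTCC.
Etv2 promoter: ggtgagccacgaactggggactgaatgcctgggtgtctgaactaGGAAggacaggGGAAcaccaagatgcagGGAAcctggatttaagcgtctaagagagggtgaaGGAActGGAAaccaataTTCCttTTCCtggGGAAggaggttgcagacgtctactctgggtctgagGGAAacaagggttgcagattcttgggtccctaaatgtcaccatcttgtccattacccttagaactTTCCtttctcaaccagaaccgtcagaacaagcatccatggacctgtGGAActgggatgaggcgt
Cox6b1 promoter: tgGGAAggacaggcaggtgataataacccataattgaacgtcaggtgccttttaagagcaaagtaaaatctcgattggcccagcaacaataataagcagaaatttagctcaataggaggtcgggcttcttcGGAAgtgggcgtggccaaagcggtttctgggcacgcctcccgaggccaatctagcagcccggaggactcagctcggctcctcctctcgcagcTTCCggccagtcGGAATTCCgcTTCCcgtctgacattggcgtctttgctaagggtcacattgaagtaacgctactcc
Rbm42 promoter: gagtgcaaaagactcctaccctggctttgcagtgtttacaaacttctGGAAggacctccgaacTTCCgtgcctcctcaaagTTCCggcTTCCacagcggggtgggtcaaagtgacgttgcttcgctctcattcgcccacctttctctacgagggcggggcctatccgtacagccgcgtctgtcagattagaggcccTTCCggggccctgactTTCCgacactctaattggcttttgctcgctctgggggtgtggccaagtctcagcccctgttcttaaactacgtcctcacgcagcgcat

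The Etv2 window held 11 ETS cores, against 6 in the Cox6b1 window, 6 in the Rbm42 window and 2 in that of Haus5, the next gene upstream. The median over all 32619 RefSeq promoter windows was 3, and 99.7% of them held fewer than 11 while 0.0889% held more. At least 1 ETS core is present in 96% of promoters, so the presence of a core is no distinction. Of the other motifs searched on both strands, the Etv2 window held 1 short CRE match (TGACG, in 20.9% of promoters) and 1 CCAAT box (CCAAT, in 37.6%). It held no GATA (in 57.7%), no E-box CANNTG (in 72.3%), no NKX2-5 core AAGTG (in 46.3%) and no GC box GGGCGG (in 35.9%). No match in the Etv2 window shared a base with a match of another motif, and 3 pairs did so in the Cox6b1 window, 1 in the Rbm42 window and 0 in the Haus5 window. The Etv2 window had a GC content of 50.7% and 5 CpG, against a median of 53% and 7 over all promoters. The windows of Cox6b1, Rbm42 and Haus5 held 17, 18 and 17 CpG. A match is a run of letters and no evidence of binding.

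**Figure D1:**
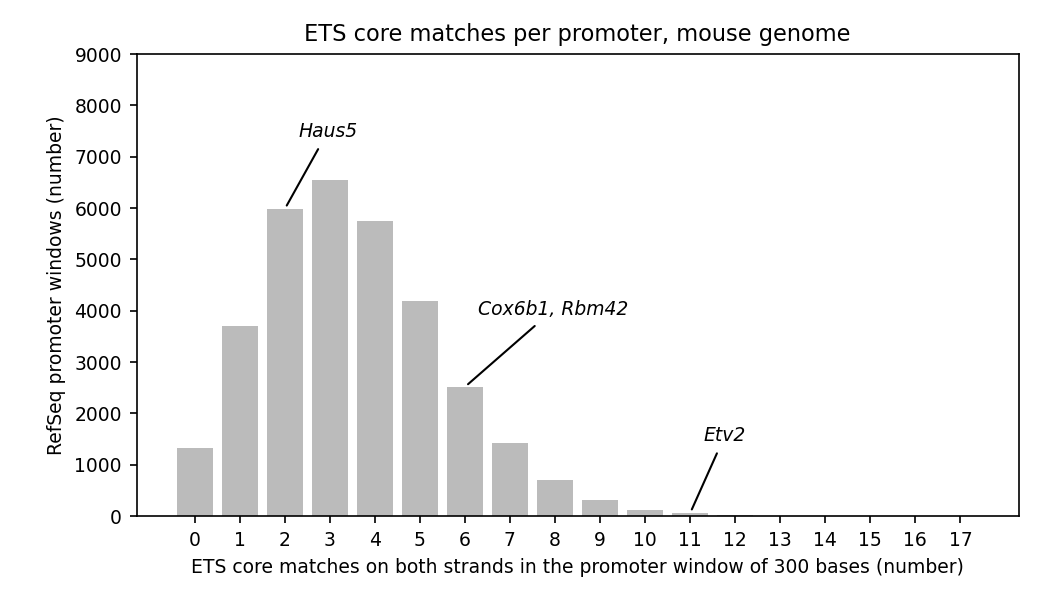
Number of RefSeq promoter windows of the mouse (vertical axis) by the number of ETS core matches on both strands in the window of 300 bases (horizontal axis). Etv2 is in the upper tail at 11, Cox6b1 and Rbm42 are at 6, Haus5 is at 2, and the median is 3.

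No summit of any list fell in the Etv2 promoter window, while the Rbm42 window had one in 17 of 19 lists, the Cox6b1 window in 12 and the Haus5 window in 8. Rbm42 encodes an RNA-binding protein, Cox6b1 a subunit of cytochrome c oxidase, and Haus5 a subunit of the augmin complex of the mitotic spindle. The windows of Upk1a, which encodes a uroplakin of the bladder epithelium, and both windows of Zbtb32, which encodes a zinc-finger repressor of lymphocytes, had a summit in no list. Over the genome, 54.5% of RefSeq promoter windows had a summit in no list and 20% had one in at least 10 lists, so an empty window was the commoner state. In 34.9% of windows at least 1 of the EB lists of 12 h had a summit.

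The positions are numbered P1 to P11 in genome order, which runs against the direction of Etv2 transcription. P1 and P2 lie near the high-coordinate edge of the interval of Kmt2b, which encodes a histone H3 lysine 4 methyltransferase, and P2 also lies in the lncRNA gene Gm32082. P3 lies in Zbtb32, P4 in Upk1a and P5 between genes. P6 is at the start of Cox6b1, P10 is 52 bp upstream of the start of Rbm42, and P11 is at the start of Haus5. P7 and P8 lie inside Etv2, 1737 and 1032 bp downstream of its start site. P9 lies between Etv2 and Rbm42, 3415 bp upstream of the Etv2 start. P9 is therefore outside the gene interval, while P7 and P8 are inside it. Whether P7 and P8 are exonic or intronic was not determined here. At the edges of the window, P1 lay 5030 bp inside the lower limit and was found in 3 lists, and the nearest position outside that limit, at base 30563408, was 20208 bp beyond it and was found in 17 lists. P11 lay 21515 bp inside the upper limit, and the nearest position outside, at base 30689401, was 2892 bp beyond it and was found in 1 list.

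**Figure D2:**
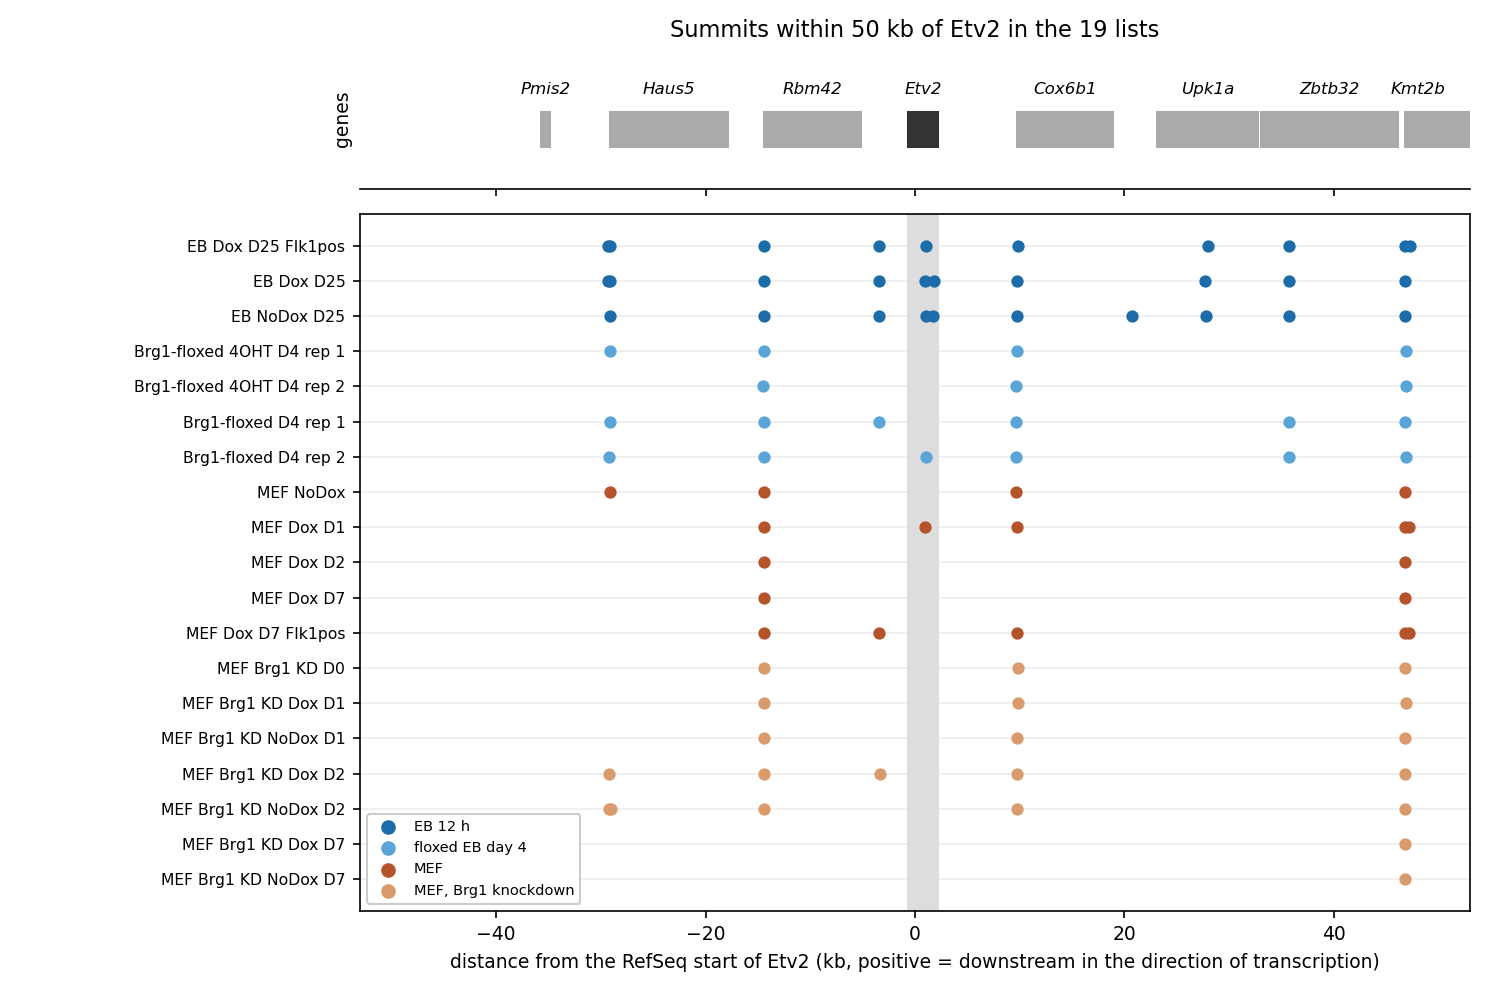
Summits within 50 kb of Etv2 (points) in each of the 19 lists (rows), by distance in kb from the RefSeq start of Etv2 on the horizontal axis, with gene intervals above and the Etv2 interval shaded. The columns of points at the starts of Cox6b1 and Rbm42 and at the edge of Kmt2b run through most rows, while points inside Etv2 stand in 5 rows, 3 of them EB lists of 12 h.

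The positions fell into a shared set at the edges of genes and a set found mainly in EB, with P1 in neither. P2 was present in 19 of 19 lists, P10 in 17, P6 in 15 and P11 in 9. P9 was present in 6 lists, P8 and P3 in 5 each, P1 and P4 in 3 each, P7 in 2 and P5 in 1. Of the 11 positions, 4 were found in EB lists and in no MEF list, which is 36.4% of them, against 43.5% of all positions in the series. No position was found in MEF lists alone, against 36.2% of all positions, and 7 were found in both, or 63.6%, against 20.3%. P2, P6 and P10 were found in at least 15 lists, or 27.3%, against 7.07% of all positions. P2 alone was found in all 19 lists, or 9.09%, against 1.59%, and P5 alone in 1 list, or 9.09%, against 39.6%. These counts are small, and they were not tested.

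The position inside Etv2 nearest its start, P8, stood high in all 3 EB lists of 12 h. Its score, the −log10 q-value of the peak caller, was 23.5 in Flk1-positive induced EB, 28.3 in unsorted induced EB and 51.5 in uninduced EB. Scores are comparable only within a list, and those of P8 exceeded 76.3%, 70.6% and 83.6% of the summits in these 3 lists. P8 was thus among the higher summits of EB both with and without Dox. Shares from lists of different lengths show no change between them, and in bulk samples fewer cells with a site open and less opening per cell cannot be told apart. Of the floxed EB samples, P8 was found in replicate 2 without 4OHT, where its score of 8.23 exceeded 48.7% of the list. It was absent from replicate 1 of that group and from both samples with 4OHT. Among the MEF lists P8 was found in 1 of 12, that of Dox day 1, with a score of 4.10 that exceeded 21.2% of the list. The 5 summits of P8 lay between bases 30634809 and 30634897.

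P7, the second position inside Etv2, was found in unsorted induced EB with a score of 3.50 and in uninduced EB with a score of 7.56. It belonged to the same peak as P8 in both lists. Those scores exceeded 15.8% and 37.1% of their lists, below P8 in each.

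P9, upstream of Etv2, was found in 6 lists and never ranked high. Its score was 7.63 in Flk1-positive induced EB, 8.02 in unsorted induced EB and 9.59 in uninduced EB, above 43.7%, 37.8% and 43.7% of those lists. In replicate 1 of the floxed EB without 4OHT its score was 7.58, above 44.9% of the list. In Flk1-positive MEF of day 7 its score was 8.12, above 51.1% of the list and behind P10 and P2 among the 5 summits there. In induced KD MEF of day 2 its score was 4.26, above 28.4% of the list. P9 was thus absent from every uninduced MEF list and present in 2 induced ones. It was also absent from most induced MEF lists, namely unsorted MEF of Dox days 1, 2 and 7 and induced KD MEF of days 1 and 7. All 6 scores are under 10, so P9 is absent from every list when a score of at least 10 is required. Its 6 summits lay between bases 30639218 and 30639297, with an SD of 29.4 bp.

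Like P7, the positions P3, P4 and P5 were found in EB lists and in no MEF list. Positions of this kind made up 36.4% of the locus, against 43.5% of all positions. P3, inside Zbtb32 and 35.7 kb downstream of the Etv2 start, had scores of 22.6 in Flk1-positive induced EB, 49.5 in unsorted induced EB and 48.6 in uninduced EB. It was present in both floxed EB samples without 4OHT, with scores of 18.4 and 10.5, in neither sample with 4OHT, and in no MEF list. P4, inside Upk1a, had low scores of 2.48, 5.58 and 5.15 in the Flk1-positive induced, unsorted induced and uninduced EB and was found nowhere else. P3 and P4 were the 2 positions in all 3 EB lists of 12 h and in no MEF list, and P3 was in both floxed EB samples without 4OHT, as were 21.9% of such positions over the genome. P5 was found in uninduced EB alone, with a score of 5.15.

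P2 and P10 ranked highest in the locus. P2 had the highest score of the locus in 18 of 19 lists and exceeded 14.4% to 98.2% of its list, with a median of 93.6%. The Flk1-positive MEF list was the exception, with P10 first and P2 second. In both KD lists of day 7 P2 was the only summit of the locus, so its first place there was fixed. P10 exceeded 37.1% to 94.5% of its list, with a median of 88.5%, and was missing from both KD lists of day 7. P6, with a median of 43.9%, exceeded 5.72% to 71.2% of its list and was missing from MEF of Dox days 2 and 7 and from both KD lists of day 7. P11 exceeded 0.273% to 65.3%, with a median of 31.5%, and its 12 summits in 9 lists spread over 300 bp. P1 was a second summit of the P2 peak in the Flk1-positive EB, the MEF of Dox day 1 and the Flk1-positive MEF.

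**Figure D3:**
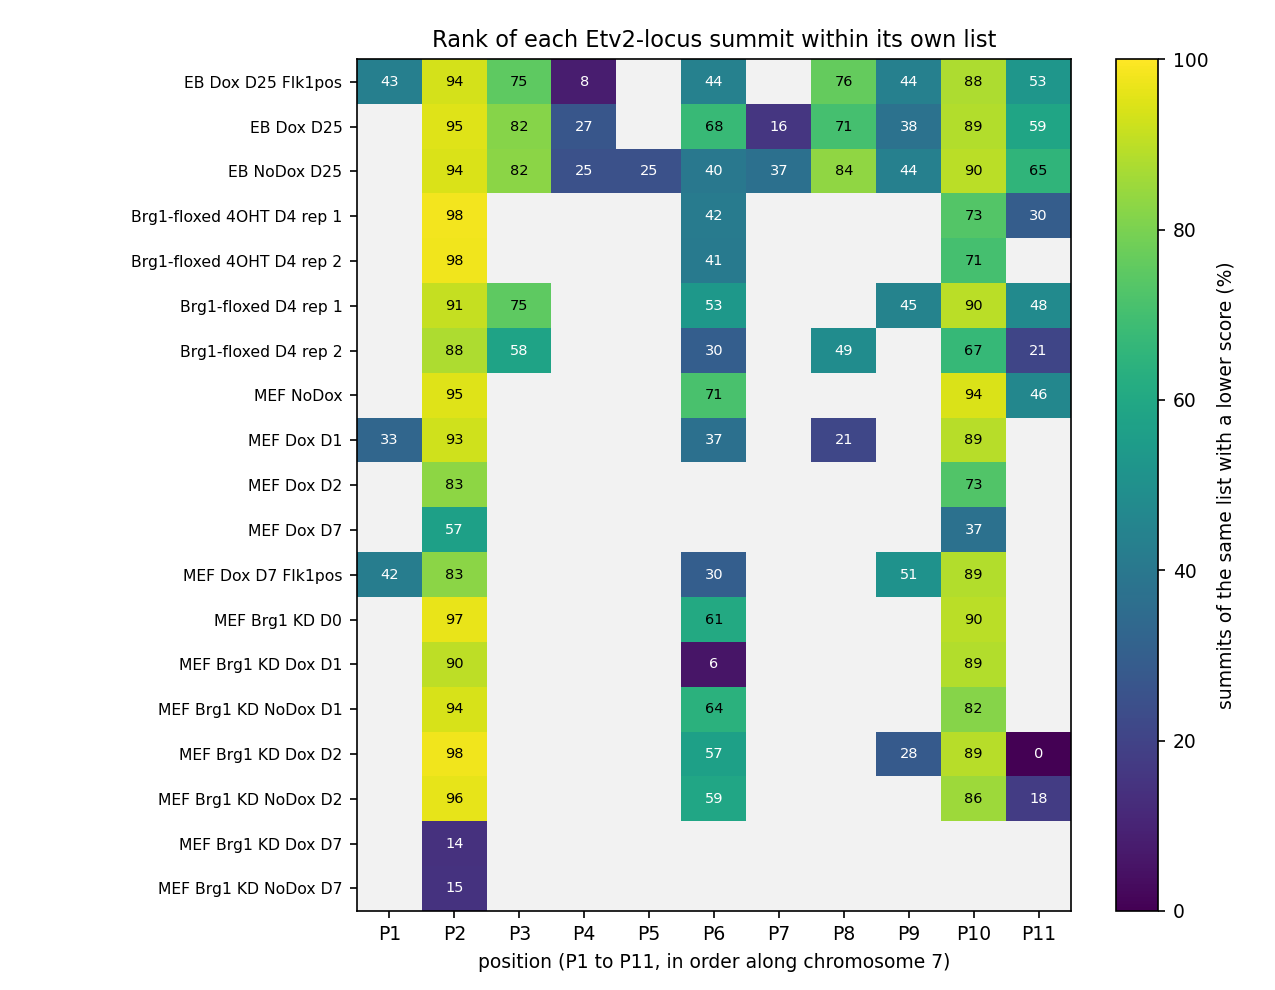
Positions P1 to P11 in genome order (columns) in the 19 lists (rows), coloured and numbered by the share (%) of summits of the same list with a lower score; pale cells hold no summit. P8 stands at 71% to 84% in the EB lists of 12 h and at 21% in its 1 MEF list, and P2 is filled in every row.

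The first comparison asked what induction of Etv2 did at its own locus in EB within 12 h. The lists held 9 positions with Dox and 10 without, of which 9 were shared. No position was gained with Dox, against 14.8% of positions gained over the genome, and 1 of 10, P5, was lost, against 25.3%. Flk1-positive induced EB, set against uninduced EB, gained 1 of 11 positions, P1, a second summit of the P2 peak, with 8.76% gained over the genome. They lost 2, P5 and P7, with 41.6% lost over the genome. P8 and P9 were therefore present in uninduced EB as well as in both induced lists. Both comparisons share the uninduced EB list and rest on 1 list a group, so none of these differences has a replicate check. The Flk1-positive list held 58004 summits and the uninduced list 85498, in which P5 ranked 62677. With lists of equal length the Flk1-positive EB had 9 positions and the uninduced EB 8. Whether list length accounts for the losses was not tested.

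The comparison of Brg1-floxed EB with and without 4OHT asked what loss of Brg1 did at the locus, and was the one with a list per sample. Whether Brg1 was lost was not checked here, since the lists hold no expression. The floxed EB with 4OHT held 4 and 3 positions, against 6 and 6 in the floxed EB without 4OHT. The samples with 4OHT were both lower, at 3.5 ± 0.707 against 6 ± 0 positions (SD, n = 2 each), a difference of -2.5. An exact two-sided permutation test gave p = 0.333, which is the smallest p that 2 samples against 2 allow, so no call could be made. Taking a loss as present in both samples without 4OHT and in neither with it, 1 of 7 positions was lost, P3, against 12.7% over the genome. P3 was 1 of 5 positions in both samples without 4OHT, and over the genome 23.6% of such positions were in neither sample with 4OHT. None of the 7 was gained by the same measure, against 2.01%. P2, P6 and P10 were present in all 4 samples, and P8, P9 and P11 were present in some. P8, inside Etv2, and P9, upstream of it, were each found in 1 of the 2 samples without 4OHT and in neither with it. Their scores there were 8.23 and 7.58. The share of positions with this pattern over the genome was not computed, so it is no result about Etv2. The lists with 4OHT were shorter, with 17946 and 20229 summits against 31436 and 23823. With the lists cut to equal length the counts were 4 and 3 against 6 and 5, a difference of -2. The difference was -1 within 10 kb of Etv2 and -1 at scores of at least 10.

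**Figure D4:**
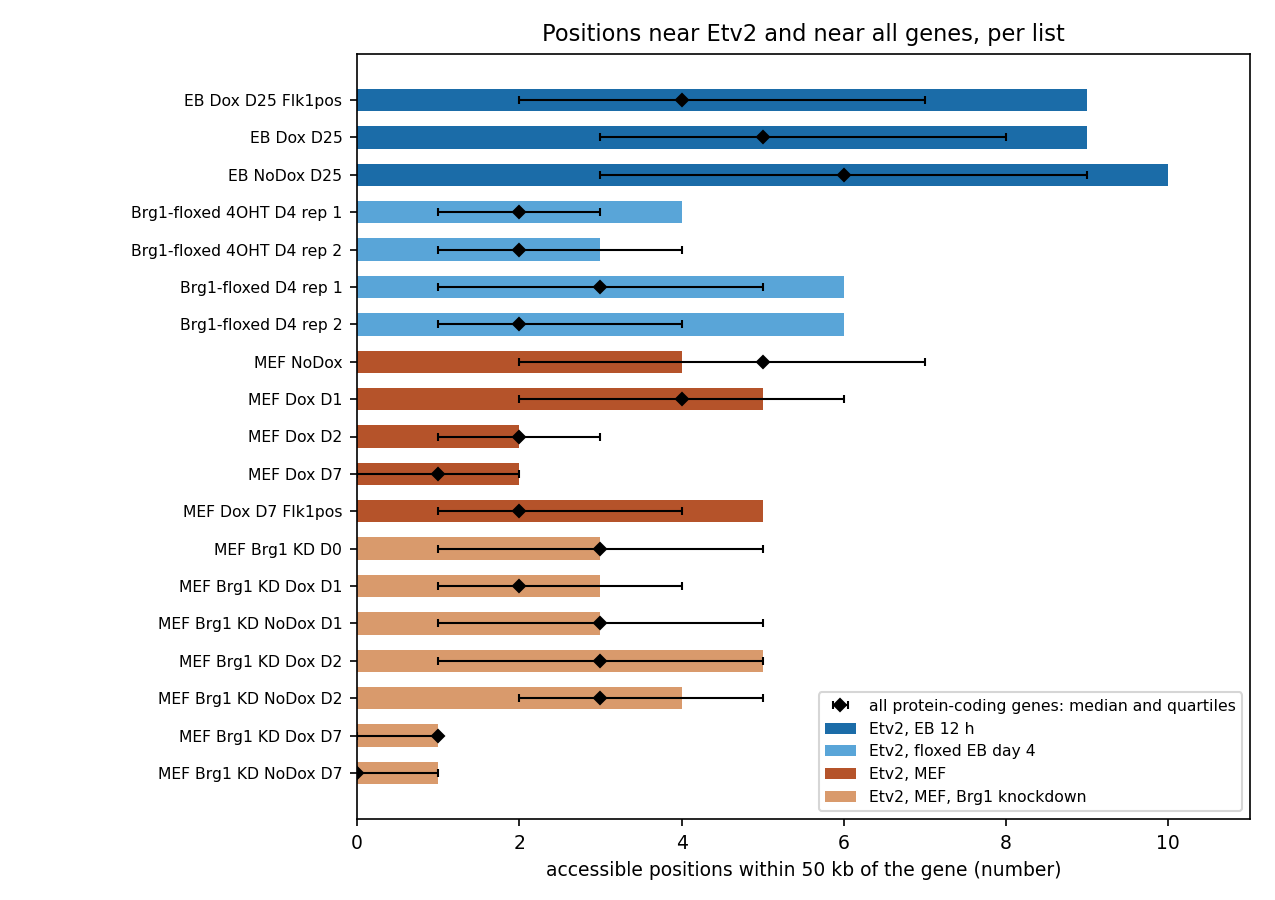
Accessible positions within 50 kb of Etv2 (bars) in each list, beside the median and quartiles over 21631 protein-coding genes (diamonds and whiskers); the horizontal axis is the number of positions. The EB lists of 12 h reach 9 to 10 against medians of 4 to 6. Among MEF lists, the Flk1-positive list has 5 against a median of 2, and the uninduced list, the only list below its median, has 4 against 5.

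Uninduced EB and uninduced MEF differed in 6 of 10 positions. P3, P4, P5, P7, P8 and P9 were present in uninduced EB and absent from uninduced MEF, and no position was present in MEF alone. Over the genome 50.7% of positions were in the EB list alone and 29.3% in the MEF list alone, so the share of EB positions at the locus, though not the absence of MEF ones, was near the background. The 4 shared positions were P2, P6, P10 and P11, all at the edges of genes. Of the 8 positions in all 3 EB lists of 12 h these 4 were in uninduced MEF, against 45.6% over the genome. All 3 positions within 10 kb of Etv2 that lie inside it or upstream of it, P7, P8 and P9, were among the 6.

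In MEF the number of positions was 4 without Dox, 5 at Dox day 1, 2 at day 2 and 2 at day 7, and 5 in the Flk1-positive cells of day 7. At day 1, 2 of 6 positions were gained, P1 and P8, against 11.3% over the genome, and 1 was lost, P11, against 32.3%. At day 2 none of 4 was gained, against 4.74%, and P6 and P11 were lost, against 63%. At day 7 the unsorted list showed the same 2 losses and no gain, against 75.3% lost and 5.17% gained over the genome. The Flk1-positive cells of day 7 gained 2 of 6 positions, P1 and P9, against 7.79%, and lost 1, P11, against 58.9%. In both the day 1 and the Flk1-positive list P1 was a second summit of the P2 peak, and P2 was also in uninduced MEF. With peaks counted in place of positions, each of these 2 lists differed from uninduced MEF by 0. All 4 comparisons share the uninduced MEF list. P8 was thus found at day 1 and at no later day, and P9 in the Flk1-positive cells and in no other MEF list without knockdown. The score of P8 at day 1 was low, at 4.10, above 21.2% of its list. As P8 lies inside Etv2, this summit cannot be assigned to the induced copy or to the endogenous gene. The day 1 list held 50015 summits, against 26217 at day 2, 18418 at day 7 and 29520 in the Flk1-positive cells. In the day 1 list P8 ranked 38198 of 50015 summits, a rank beyond the length of each of the later lists. Whether list length accounts for the later absence of P8 was not tested.

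The EB lists give a reference set for these gains. Of the 11 positions, 4 were present in all 3 EB lists of 12 h and absent from uninduced MEF, P3, P4, P8 and P9. One of the 4, P8, was in the list of MEF day 1, against 4.01% of all such positions of the genome. One, P9, was in the list of Flk1-positive MEF, against 2.96%. None was in the day 2 list, against 2.45%, or in the unsorted day 7 list, against 2.52%. Each of these counts is 1 position in 1 list, and none was tested. P8 lies inside Etv2, so its summit after Dox cannot be assigned to the induced copy or to the endogenous gene. At scores of at least 10 neither P8 nor P9 is in any MEF list, and P8 remains in the 3 EB lists of 12 h alone. Scores are comparable only within a list, so this minimum cuts lists at different shares. A score of 6.91, that of P2, exceeded 57.0% of the list of unsorted MEF of day 7. A score of 9.59, that of P9, exceeded 43.7% of the uninduced EB list. The contrast is therefore no measure of strength between EB and MEF.

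In KD MEF the lists with and without Dox held 3 and 3 positions at day 1, 5 and 4 at day 2, and 1 and 1 at day 7. The uninduced KD MEF of day 0 held 3. At day 1 the same 3 positions, P2, P6 and P10, were in both lists, while 11.3% of positions were gained and 37% lost over the genome. At day 2 the induced list gained 1 of 5 positions, P9, against 17.1%, and lost none, against 31.6%. P9 is also in all 3 EB lists of 12 h, and of the positions in those 3 lists and absent from uninduced KD MEF of day 2, 4.91% were in the induced list. At day 7 both lists held P2 alone, while 33.3% of positions were gained and 19% lost over the genome. P7 and P8 were in none of the 7 KD lists. The KD lists were written in another number format than the MEF lists without knockdown, so knockdown and processing cannot be told apart, and the values stand side by side without a comparison. At Dox day 1, KD MEF held 3 positions and MEF without knockdown 5, from lists of 26882 and 50015 summits. At Dox day 2 they held 5 and 2, from 37772 and 26217 summits. At Dox day 7 they held 1 and 2, from 13644 and 18418 summits. In each pair the longer list held more positions, and the part of list length was not tested.

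**Figure D5:**
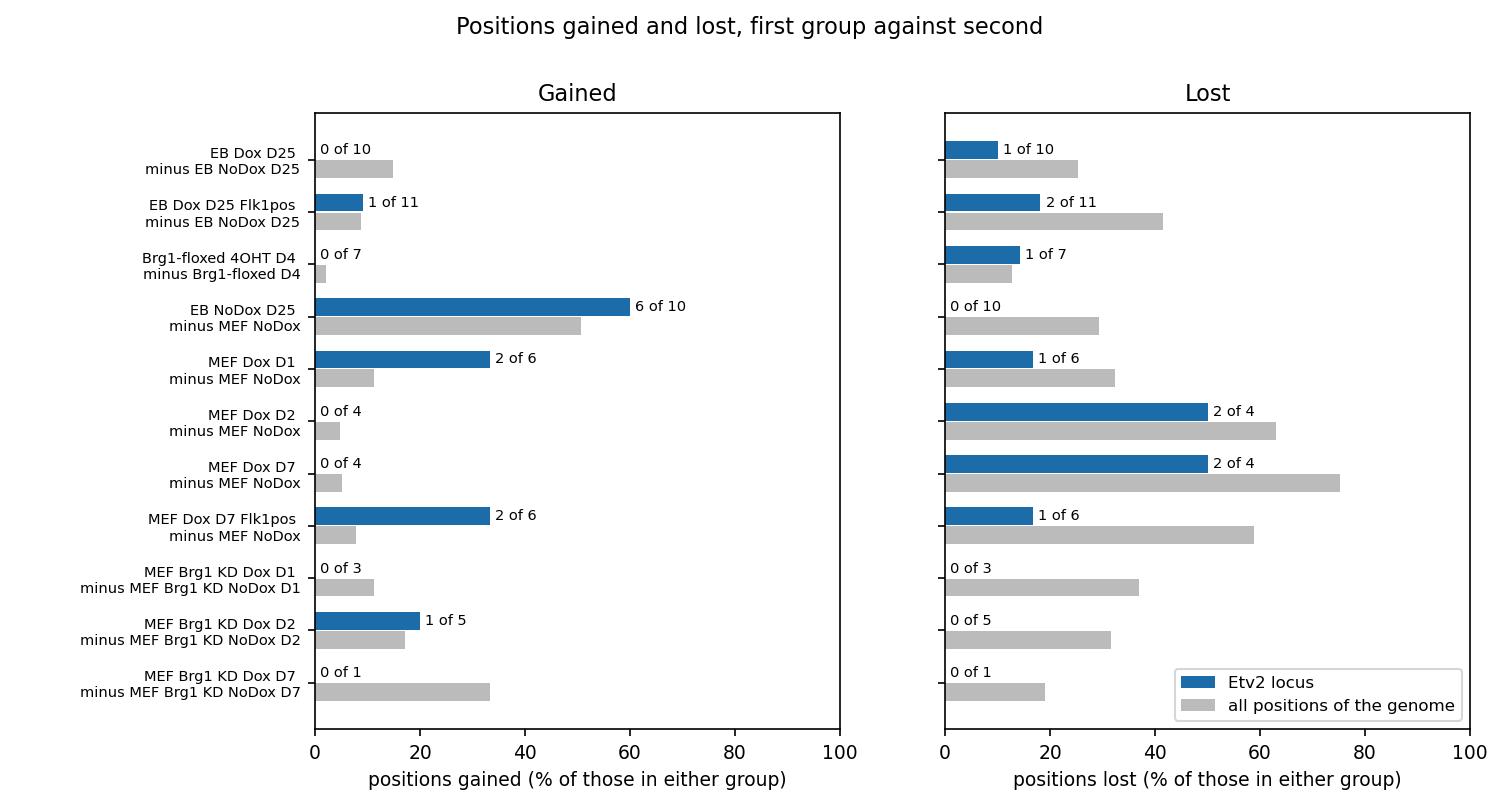
Positions gained (left) and lost (right) in 11 comparisons, as a share (%) of the positions in either group, for the Etv2 locus (blue, with counts) and for all positions of the genome (grey). The locus stands at 2 of 6 gained in MEF of Dox day 1 and in Flk1-positive MEF, and below the genome for losses in all comparisons but that of the floxed EB. In both of these MEF comparisons 1 of the 2 gained is P1, a second summit of the P2 peak.

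Against other genes, Etv2 had as many positions as the median gene over all lists together. It had more than the median gene in each EB list and in several MEF lists, and fewer in the uninduced MEF list alone. Its 11 positions equal the median of 11 over 21631 protein-coding genes. In the EB lists its 9 positions in Flk1-positive, 9 in unsorted induced and 10 in uninduced EB stood against medians of 4, 5 and 6, and 86.2%, 76.2% and 79.9% of genes had fewer. In the Flk1-positive MEF 83.9% of genes had fewer than its 5 positions, while in uninduced MEF 37.5% had fewer than its 4. The counts moved with the length of the lists, with a Pearson r of 0.83 between positions near Etv2 and all positions over the 19 lists, and of 0.74 over the 12 MEF lists. The points of this description share cells and list lengths. The 5 genes over 1 Mb away whose counts were most like those of Etv2 over the 19 lists were Crb2 at r = 0.97, Nelfb at r = 0.97, and Gm20604, Moap1 and Tmem251 at r = 0.96. The last 3 lie side by side on chromosome 12 and share their positions. The median r over the 17695 genes compared was 0.71, and 30.3% of genes reached 0.8, so a high r is common.

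Genes placed around Etv2 in its pathway were described by the same count of positions within 50 kb, from lists of 10 upstream regulators, 15 downstream targets and 14 other ETS factor genes, which share 5 genes. In unsorted induced against uninduced EB, 5 of 10 upstream regulators had more positions and 3 fewer, with a median difference of 0.5. Of the downstream targets 10 of 15 had more and 5 fewer, with a median difference of 2, and of the ETS factor genes 9 of 14 had more and 2 fewer, with a median of 1. Over all genes 25.8% had more and 42.4% fewer, with a median of 0, and Etv2 itself had 1 fewer. Kdr had 8 positions with Dox and 2 without, and Lyl1, a blood transcription factor gene, had 19 and 15, while Elk4, an ETS factor gene, had 10 and 6. Bmp4, a ligand that induces mesoderm, had 7 with Dox and 10 without, and Flt1, a VEGF receptor gene, had 12 and 14, while Etv5, an ETS factor gene, had 5 and 7.

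In Flk1-positive induced against uninduced EB, 2 of 10 upstream regulators had more positions and 6 fewer, as did 3 and 9 of the 15 downstream targets and 3 and 6 of the 14 ETS factor genes, while 8.81% of all genes had more and 68.5% fewer. Kdr had 6 positions in the Flk1-positive EB and 2 in uninduced EB, and Etv6, an ETS repressor gene, had 11 and 7. Cdh5, the gene of VE-cadherin, had 7 and 14, and Bmp4 and Flt1 had 4 and 10 and 8 and 14.

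In the floxed EB, 0 of 10 upstream regulators had more positions with 4OHT and 9 had fewer, with a median difference of -1.75. Of the downstream targets 1 of 15 had more and 11 fewer, and of the ETS factor genes 0 of 14 had more and 7 fewer. Over all genes 8.7% had more and 59.8% fewer, with a median of -0.5, and Etv2 had a difference of -2.5. Mesp1, an early mesoderm transcription factor gene placed upstream of Etv2, averaged 3 positions with 4OHT and 8 without. Foxc2, a forkhead factor gene that acts with Etv2 on endothelial enhancers, averaged 4 and 7.5, while Cdh5 averaged 1 and 4.5 and Rhoj, an endothelial GTPase gene, 1.5 and 5. Sox7 was the one gene of the 3 lists with more, at 1 and 0.5. In uninduced EB against uninduced MEF, 7 of 10 upstream regulators, 10 of 15 downstream targets and 2 of 14 ETS factor genes had more positions, while 58.7% of all genes had more. Tek, an endothelial receptor gene, had 12 in EB and 3 in MEF, and Bmp4 had 10 and 2, while Etv6 had 7 and 15 and Creb1, the gene of a CRE-binding factor, had 3 and 10.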

How the data were processed

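ATAC-seq summit lists of 34 mouse samples were used. Per the submitters' processing notes, Bowtie2 2.2.4, MACS2 and HOMER were used with mm10; other settings are not given in the sources used here. Per the labels, 1 list serves both replicates of 15 groups, and the floxed samples have 1 each. The authors deposited a score per summit, read as the −log10 q-value of MACS2 because no score is under 1.30, the value for a q-value of 0.05. Scores written with over 6 digits occur in the EB lists of 12 h and the MEF lists without knockdown and not in the others, and the floxed lists hold 1 summit per peak.

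Summits of all 19 lists were joined by single linkage within 250 bp with Python 3.11.15, numpy 2.4.6 and pandas 2.3.3. A position was taken as near a gene when its median summit lay within 50 kb of the gene interval, for 21631 protein-coding genes of RefSeq. Gained means present in the first group and absent from the second. The floxed groups were compared by an exact permutation test. On 2 simulated lists of 20000 positions, 200 of 200 gained and 300 of 300 lost positions were recovered. The simulated positions lay much farther apart than the joining distance, with small shifts between lists. Full recovery was thus bound to occur if the counting was right. It says nothing of closely spaced summits, thresholds or unequal list lengths. Where nothing says that replicates are separate cultures, the p-value measures only the spread between samples. The alternatives were a joining distance of 100 bp, a window of 10 kb, scores of at least 10, lists cut to equal length, each replicate left out and a replicate block, with peaks in place of positions chosen after seeing the data. Genes were named by place in the window, by the 5 highest correlations, and by the 2 highest and 2 lowest differences in the gene lists per EB comparison, with tied genes in part named beside them. The locus, gene lists and markers were chosen with earlier results of these data known.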

Additional observations from a re-analysis of the deposited data

Results flagged for a closer look

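In 3 cases the change in the number of positions after induction had opposite signs in 2 settings; each rests on 1 list a group, and the difference was not tested. Against uninduced MEF the number changed by -2 at Dox day 2 and by 1 at day 1, a gap of -3. At day 7 it changed by 1 in Flk1-positive MEF and by -2 in unsorted MEF, a gap of 3. Induced EB of 12 h changed by -1 and MEF of Dox day 1 by 1, a gap of -2. With peaks counted in place of positions, MEF of Dox day 1 and Flk1-positive MEF each changed by 0, so no signs are then opposite. List lengths differed as well, with 50015 summits at Dox day 1 and 26217 at day 2. At day 7 there were 29520 in Flk1-positive and 18418 in unsorted MEF. At scores of at least 10 none of the 3 stands as given. MEF then changed by -1 at day 2 and by -1 at day 1, Flk1-positive MEF of day 7 by -1 and unsorted MEF by -3, and induced EB by 1 against -1 in MEF of day 1, which turns the signs round.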

How the results depend on the processing

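The number of positions was recomputed for 11 comparisons. Of 58 recomputed differences, 39 counted as unmoved, 14 moved and 5 changed sign. With 1 list a group, unmoved means within 1.5 times the reported difference; for the floxed EB, which had a test, it means the same direction and no call, so their shifts to -1 count as unmoved. None had a test that could pass, and for the changes below the cause was not tested. With scores of at least 10, the difference was 1 for unsorted induced minus uninduced EB, against -1 with all scores. With the same minimum it was -1 for MEF Dox day 1 and for Flk1-positive MEF of day 7, both against 1, and -1 for induced KD MEF of day 2, against 1. That minimum also gave 0 for Flk1-positive minus uninduced EB, 2 for uninduced EB minus uninduced MEF, -1 for MEF Dox day 2 and -1 for KD MEF of day 1. Scores are comparable only within a list, so this minimum cuts lists at different shares. With lists of equal length, Flk1-positive minus uninduced EB was 1, against -1 with full lists, MEF Dox days 2 and 7 were -1 each, Flk1-positive MEF were 2, and KD MEF of day 7 were -1. Within 10 kb of Etv2 the difference was 0 for unsorted induced EB, 3 for uninduced EB minus uninduced MEF, and -1 for MEF Dox days 2 and 7. With peaks in place of positions it was 0 for MEF Dox day 1 and for Flk1-positive MEF. The floxed difference of -2.5 ranged from -3 to -2 with 1 replicate number left out, and was -1 within 10 kb, -1 at scores of at least 10 and -2 at equal lengths. With the replicate number as a block it was -2.5, with an exact p of 0.5 over 2 pairs, the smallest they allow; the labels do not say that the numbers pair the samples. A joining distance of 100 bp moved none of the 11 differences. The unknown depth limits every absence of a position to the threshold of its list.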
